A study of Mus musculus with 8 samples.

Results

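The genes examined here encode 10 subunits of neurotransmitter-gated cation channels: the neuronal nicotinic acetylcholine receptor subunits Chrna3, Chrna4, Chrna5, Chrna6, Chrna7, Chrnb2, Chrnb3 and Chrnb4, and the serotonin type 3 (5-HT3) receptor subunits Htr3a and Htr3b. They were taken by name, a choice made with earlier results of these data known, from the 55414 Ensembl genes of the count files, and all 10 passed the filter on low counts that left 17721 genes for testing. Their transcripts were measured by bulk RNA-seq in whole dorsal root ganglia (DRG), labelled as neurons and glia, of mouse embryos at E18.5. The 4 AD1 OE libraries came from AdvillinCre/+;Rosa26Dach1/+ embryos, in which Cre at the sensory neuron gene Advillin removes a stop cassette in front of a Dach1-IRES-EGFP copy at Rosa26. The 4 Control libraries had the Rosa26Dach1 allele without Cre. Cre and the Dach1 it switches on are thus present in AD1 OE alone. Avil, the Advillin gene that carries Cre, was also lower there (log2 fold change -0.94). The effects of Cre, of Dach1 and of less Avil cannot be told apart. The Rosa26Dach1 line was of mixed C57Bl/6J and CD1 background. The comparison asks which transcripts differ when the transcription factor Dach1 is expressed throughout the sensory neurons late in embryonic development. The paper reports that Dach1 was at first restricted in these embryos, much as in controls, and only later became broad again. The study counts the replicates of each genotype as separate embryos, while the labels number them without naming the animal, and p-values measure the spread between these libraries.

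Nicotinic and 5-HT3 receptors belong to 1 channel superfamily, in which subunits assemble in rings around a pore that passes cations when the transmitter binds. The subunit mixture sets the properties of the channel. Chrna7 can form receptors on its own that pass much calcium, Chrna3 with Chrnb4 makes the classic receptor of autonomic ganglia, Chrna4 with Chrnb2 the most common receptor of the brain, and Chrna5 and Chrnb3 join other subunits as accessory members. Htr3a forms working serotonin-gated channels by itself, while Htr3b needs Htr3a and raises the conductance of the mixed channel. In sensory neurons both receptor families depolarise the cell, and they have been studied in pain and itch.

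Depth ranged from 22339059 to 44025625 counts per library, and no 2 libraries of a group agreed within sampling noise (chi-square over its degrees of freedom 4.34 to 12.2). The members had between 48 and 3442 counts per library. Levels are given as CPM, a gene's counts relative to the TMM-scaled total of its library. Dach1 had a log2 fold change of 1.56 and Avil, the gene that carries Cre, of -0.94 (edgeR adjusted p = 1.77e-08 and 1.98e-07), in the directions the genotypes lead to. Of 8 sensory neuron markers 4 had a log2 fold change below 0, 3 had an unadjusted edgeR p under 0.05 (Avil and Snap25 lower, Elavl4 higher) and Avil alone was called. Their summed level was 5476 to 6177 CPM in AD1 OE and 6308 to 6507 CPM in Control, and without Avil 5027 to 5711 and 5402 to 5588 CPM, where the groups overlapped. None of 6 glial markers was called by edgeR, DESeq2 or limma-voom (2 at an unadjusted edgeR p under 0.05). Control 1 had the most transcripts of sympathetic neurons (summed markers 19.8 CPM against 4.09 to 8.61 in the other libraries) and of spinal cord (23.0 against 4.67 to 14.4), and AD1 OE 3 the most of skeletal muscle (624 CPM against 122 to 398). The 6 spinal cord markers of 9 that could be tested all had a log2 fold change below 0, with a median of -1.09, 0 called by edgeR, DESeq2 or limma-voom and 1 at an unadjusted edgeR p under 0.05 (Olig1), and Mnx1 was at 0 in 6 of 8 libraries. AD1 OE held 1 library with Xist and 3 with Y-linked transcripts, and Control 3 with Xist and 1 with Y-linked transcripts, so sex was unequal between the groups.

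Among the subunits, Chrna3 and Htr3b rose in AD1 OE and Chrna6 and Chrna7 fell. A gene was called when the edgeR quasi-likelihood test gave a Benjamini-Hochberg adjusted p under 0.005, over all tested genes, with an absolute log2 fold change over 0.25. Of the 10 subunits 4 were called, where 2.57% of all tested genes were. The 2 called higher stand beside 0.784% of all tested genes and the 2 called lower beside 1.78%. In 5 subunits the groups did not overlap, 3 of them higher and 2 lower in AD1 OE, and this held for 13% of all tested genes (5.69% higher and 7.26% lower). The fifth of these was Chrnb4, which was not called. The median absolute log2 fold change was 0.37 over the 10 subunits and 0.08 over all tested genes, and the median signed values were 0.16 and 0.002. In bulk RNA, fewer cells of a type and less RNA per cell cannot be told apart, and this applies to every level below.

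**Figure D1:**
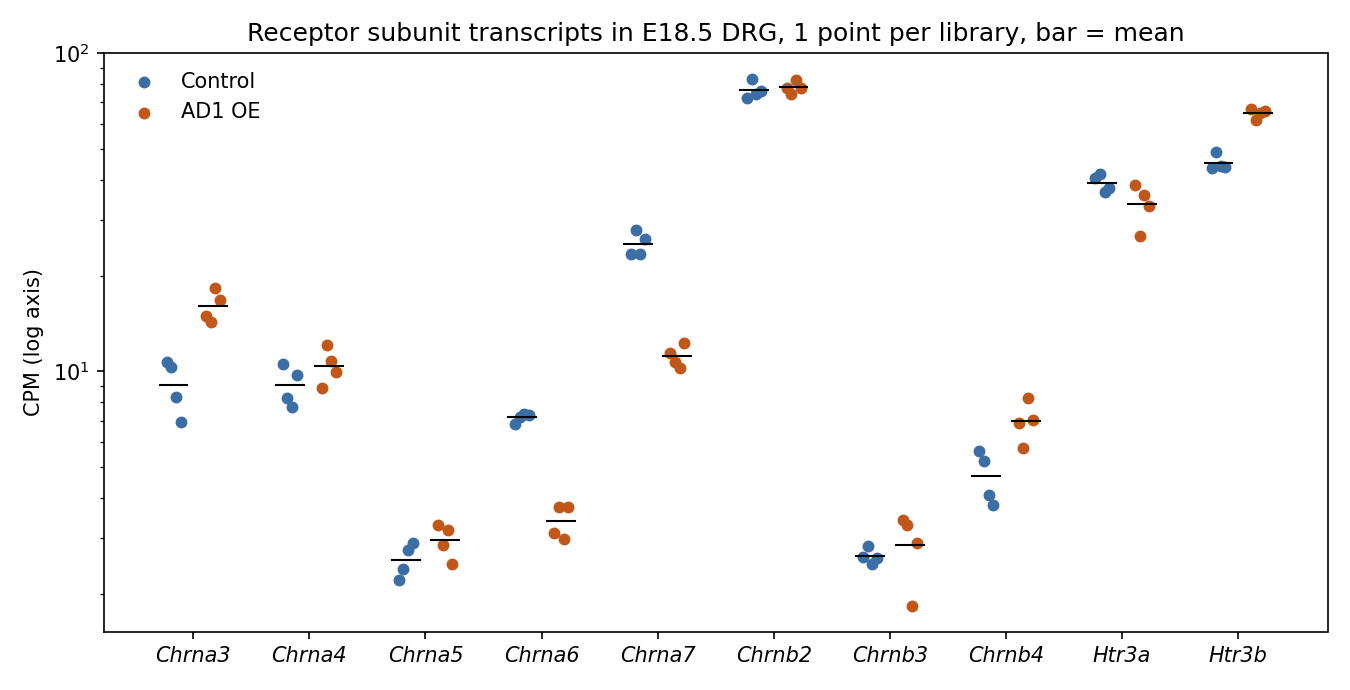
CPM of the 10 subunit transcripts on a log axis, with 1 point per library, 4 Control libraries in blue, 4 AD1 OE libraries in orange and a bar at each group mean. The AD1 OE points lie wholly above the Control points for Chrna3, Chrnb4 and Htr3b and wholly below them for Chrna6 and Chrna7.

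The promoters of called subunits are shown as the sequence context of genes that moved in opposite directions. RefSeq windows on GRCm38.p6 were at hand for 7 of the 10 subunits (8 windows, 250 bases before each start site), without Chrna6, Chrnb3 and Htr3a. The stretch free of annotated exons is printed for the 3 called subunits with an entry, all on the minus strand and written 5′ to 3′, with matches to 4 short motifs on either strand in capitals.
Chrna7, chr7:63212570-63212776, 250 to 44 bases before the start: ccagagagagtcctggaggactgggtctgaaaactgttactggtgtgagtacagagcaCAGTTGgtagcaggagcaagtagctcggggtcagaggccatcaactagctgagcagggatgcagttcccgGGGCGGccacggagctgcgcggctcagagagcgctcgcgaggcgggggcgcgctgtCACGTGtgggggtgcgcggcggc
Chrna3, chr9:55026563-55026812, 250 to 1 bases before the start: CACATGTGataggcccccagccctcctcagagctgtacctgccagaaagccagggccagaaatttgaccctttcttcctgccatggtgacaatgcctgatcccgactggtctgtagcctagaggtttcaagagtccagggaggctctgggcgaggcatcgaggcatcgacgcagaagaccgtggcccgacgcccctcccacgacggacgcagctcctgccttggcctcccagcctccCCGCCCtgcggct
Htr3b, chr9:48964991-48965240, 250 to 1 bases before the start: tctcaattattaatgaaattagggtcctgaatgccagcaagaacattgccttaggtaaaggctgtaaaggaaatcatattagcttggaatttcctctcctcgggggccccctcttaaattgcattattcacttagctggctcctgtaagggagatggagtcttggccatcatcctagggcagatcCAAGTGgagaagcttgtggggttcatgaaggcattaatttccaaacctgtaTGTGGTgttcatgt
The GC box GGGCGG was found 1 time in Chrna7, which fell, and 1 time in Chrna3, which rose (there on the opposite strand, from 13 to 8 bases before the start), and 32.7% of all 32841 promoter windows held it. Among the subunits not called, Chrna4 held it 3 times and 1 Chrna5 window 4 times, and Chrnb2 and Chrnb4 held it 0 times. The E box CANNTG matched at 2 separate places in Chrna7, at 2 overlapping places in Chrna3 and at 1 place in Htr3b, and 66.2% of all windows held it. It also matched in Chrnb2, Chrnb4 and both Chrna5 windows, which were not called, and not in Chrna4. The Runx-type core TGTGGT was found in Htr3b alone among the 7 genes, from 14 to 9 bases before the start, and in 14% of all windows. The homeodomain core TAATTA was found in none of the 7 genes and in 4.84% of all windows. These matches are letters in a window and no measure of binding.

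Chrna7, the subunit of the calcium-permeable homomeric nicotinic receptor, was at 11.4, 10.7, 10.2 and 12.3 CPM in AD1 OE replicates 1 to 4 and at 23.4, 27.9, 23.5 and 26.0 CPM in Control replicates 1 to 4. Every AD1 OE library lay below every Control library, and the AD1 OE mean was 44.3% of that in Control. The log2 fold change was -1.17 (SE 0.08, edgeR adjusted p = 3.87e-06), and it was called in each of 17 alternative fits, between -1.24 and -1.12. No subunit had a smaller adjusted p.

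Chrna6, an alpha subunit that assembles with beta subunits and is known from dopamine neurons, the retina and sensory ganglia, was at 3.10, 3.74, 2.98 and 3.74 CPM in AD1 OE and at 6.84, 7.16, 7.35 and 7.31 CPM in Control. The groups were far apart beside their spread, and AD1 OE stood at 47.3% of Control. The log2 fold change was -1.09 (SE 0.10, edgeR adjusted p = 3.77e-05) and it was called in each of the 17 alternative fits. The summed spinal cord markers, whose fold changes had the same sign, were at 5.79 to 8.72 CPM in AD1 OE and at 4.67 to 23.0 CPM in Control, with overlap. In Control 1 to 4 that sum was 23.0, 4.67, 8.06 and 14.4 CPM, and Chrna7 was at 23.4, 27.9, 23.5 and 26.0 CPM. No relation between them was tested. Without Control 1 and AD1 OE 3 the log2 fold changes were -1.16 for Chrna7 (edgeR adjusted p = 1.42e-05) and -1.05 for Chrna6 (2.1e-04).

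Chrnb3, the accessory subunit encoded beside Chrna6 on chromosome 8, was at 3.41, 3.30, 1.84 and 2.88 CPM in AD1 OE and at 2.61, 2.83, 2.48 and 2.60 CPM in Control. The Control values lay inside the AD1 OE range, whose lowest library was AD1 OE 3. The log2 fold change was 0.13, with a 95% interval from -0.26 to 0.51, so that a fall of the size seen in Chrna6 lay outside the interval. The ratio of Chrnb3 to Chrna6 counts was 0.62 to 1.10 in AD1 OE and 0.34 to 0.40 in Control, with no overlap. On the log2 scale the ratio was higher by 1.16 (exact permutation test, two-sided, p = 0.0286, the smallest that 4 against 4 libraries allow, and 0.0357 when adjusted over 5 ratios). With Chrnb3 at a log2 fold change of 0.13, the ratio mostly restates the fall of Chrna6 and is no separate evidence.

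Chrna3, the alpha subunit of the ganglionic receptor, was at 14.9, 14.3, 18.3 and 16.7 CPM in AD1 OE and at 10.7, 10.3, 8.29 and 6.95 CPM in Control. The groups did not overlap, and the AD1 OE mean was 1.78 times the Control mean. Its log2 fold change was 0.83 (SE 0.13, edgeR adjusted p = 0.00178). The call was lost without AD1 OE 1 (edgeR adjusted p = 0.00509), without AD1 OE 4 (0.00753) or without Control 3 (0.00748), while the log2 fold change stayed between 0.72 and 0.92 over the 8 fits that left out 1 library.

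Chrnb4, the partner of Chrna3 in that receptor and its neighbour on chromosome 9, was at 6.87, 5.75, 8.26 and 7.05 CPM in AD1 OE and at 5.62, 5.23, 4.09 and 3.81 CPM in Control. All AD1 OE values lay above all Control values, though AD1 OE 2 was only just above Control 1, and its log2 fold change was 0.58 (SE 0.14). It missed the threshold with edgeR (adjusted p = 0.0308) and passed it with DESeq2 (adjusted p = 0.00373), which called 3.71% of all tested genes. The libraries ranked identically for Chrna3 and Chrnb4, with AD1 OE 3 highest and AD1 OE 2 lowest in AD1 OE, and Control 1 highest and Control 4 lowest in Control.

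Chrna5, the accessory subunit in the same gene cluster, was at 3.30, 2.85, 3.17 and 2.48 CPM in AD1 OE and at 2.2, 2.4, 2.75 and 2.88 CPM in Control. The groups overlapped, and the log2 fold change was 0.21 with a 95% interval from -0.09 to 0.51 (edgeR adjusted p = 0.473). In Control its libraries ranked in the reverse of the Chrna3 order. The log2 ratio of Chrna5 to Chrna3 was lower by 0.64 in AD1 OE and the groups overlapped (p = 0.0571 in a two-sided exact permutation test, and 0.0571 when adjusted over 5 ratios). Leaving out 1 library, the adjusted p of this test was 0.0286 without Control 1. It lay between 0.0571 and 0.171 without any other library. The ratio of Chrnb4 to Chrna3 was between 0.49 and 0.55 in Control and between 0.40 and 0.46 in AD1 OE. On the log2 scale it was lower by 0.26 in AD1 OE (exact permutation test, two-sided, p = 0.0286, adjusted over 5 ratios 0.0357). By this ratio within libraries Chrna3 rose by more than Chrnb4, at the smallest p the test allows. The 95% intervals of their separate log2 fold changes overlapped (0.55 to 1.12 and 0.27 to 0.89). Since both genes were measured in the same libraries, that overlap does not measure the difference between them.

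Chrna3 and Chrnb4 are also expressed in sympathetic neurons, and the sympathetic marker sum was 5.31 to 8.61 CPM in AD1 OE and 4.09 to 19.8 CPM in Control, with none of the 4 tested markers of 9 called by edgeR, DESeq2 or limma-voom (0 at an unadjusted edgeR p under 0.05) and with Hand1 at 0 in Control 3 and Control 4. Without Control 1 and AD1 OE 3, the libraries with the most transcripts of other tissues, the log2 fold change of Chrna3 was 0.85 (edgeR adjusted p = 0.00217) and that of Chrnb4 0.59 (0.0286), a pair of libraries left out after seeing the data. Both transcripts were higher in Xist libraries than in those with Y-linked transcripts within each group, by 0.26 and 0.48 for Chrna3 and by 0.34 and 0.37 for Chrnb4 on the log2 scale (AD1 OE and Control). Within the Xist libraries AD1 OE exceeded Control by 0.92 for Chrna3 and 0.74 for Chrnb4, and within the others by 1.14 and 0.78, with 1 library on 1 side of each comparison and so no test. With a sex score as covariate the log2 fold changes were 1.04 (edgeR adjusted p = 1.5e-04) and 0.78 (0.0054). Over all subunits, 8 of 10 had the same direction within both sexes, Chrna5 and Chrnb3 being the exceptions.

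Chrna4 and Chrnb2, which form the main nicotinic receptor of the brain, were not called. Chrna4 was at 8.88, 12.1, 10.8 and 9.93 CPM in AD1 OE and at 10.6, 8.25, 7.70 and 9.72 CPM in Control. Its groups overlapped, with a log2 fold change of 0.20 and a 95% interval from -0.06 to 0.45 (edgeR adjusted p = 0.413). Chrnb2, the nicotinic subunit with the most counts, was at 77.8, 74.6, 82.2 and 77.7 CPM in AD1 OE and at 72.5, 82.8, 74.6 and 76.2 CPM in Control. The 2 groups overlapped, with a log2 fold change of 0.03 and a 95% interval from -0.07 to 0.13, the narrowest of the 10 subunits. In the annotation 16.3% of its exon bases also lie in Adar on the opposite strand, and the strand setting of the counting is not stated, so the Chrnb2 count is uncertain by an amount that was not measured. The Chrnb2 to Chrna3 ratio went from between 6.79 and 10.9 in Control to between 4.48 and 5.21 in AD1 OE. The log2 difference was -0.81 (exact permutation test, two-sided, p = 0.0286, adjusted over 5 ratios 0.0357, and 0.0714 without AD1 OE 3). With Chrnb2 at a log2 fold change of 0.03, this ratio mostly restates the rise of Chrna3 and is no separate evidence.

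**Figure D2:**
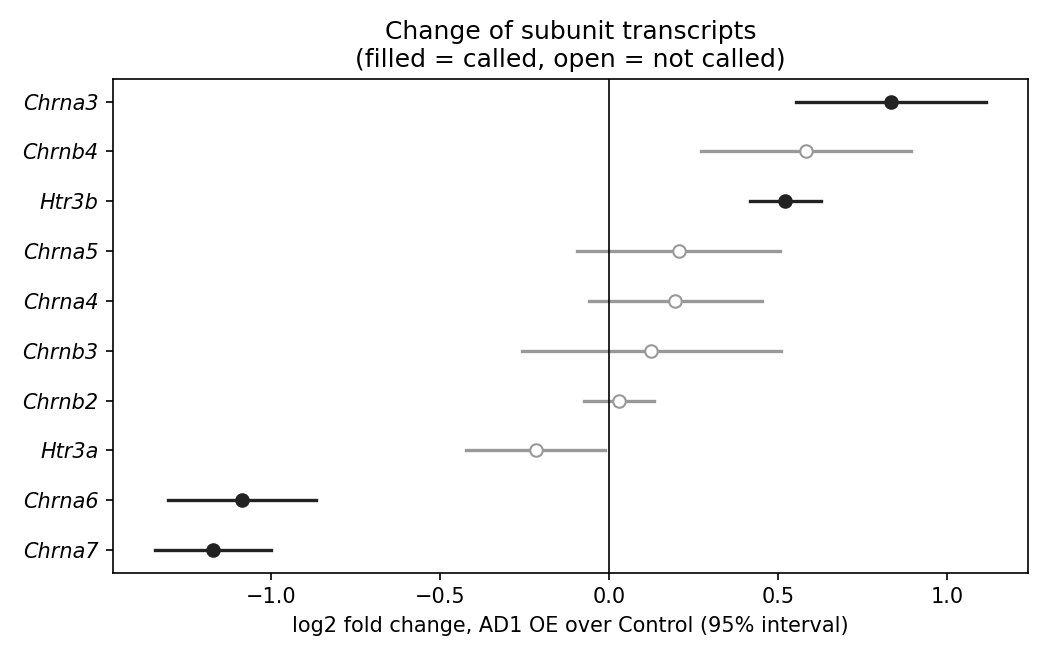
Log2 fold change of each subunit transcript, AD1 OE over Control, with its 95% interval from edgeR; filled points were called and open points were not. Chrna7 and Chrna6 lie near -1.17 and -1.09, Chrna3 and Htr3b at 0.83 and 0.52, and the intervals of Chrna4, Chrna5, Chrnb2 and Chrnb3 include 0.

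Htr3b, the subunit that modifies 5-HT3 channels, was at 66.9, 61.8, 64.9 and 66.0 CPM in AD1 OE and at 43.7, 48.9, 44.2 and 43.9 CPM in Control. The groups lay well apart, at 1.44 times the Control mean, and Control 2 stood above the other Control libraries. The log2 fold change was 0.52 (SE 0.05, edgeR adjusted p = 3.98e-05), and it was called in each of the 17 alternative fits.

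Htr3a, the subunit without which no 5-HT3 channel forms, was at 38.5, 26.6, 35.8 and 33.1 CPM in AD1 OE and at 40.5, 41.8, 36.6 and 37.6 CPM in Control. AD1 OE 1 lay inside the Control range and the other 3 below it. The log2 fold change was -0.22 with a 95% interval from -0.42 to -0.01 and did not pass after adjustment (edgeR adjusted p = 0.241). The ratio of Htr3b to Htr3a counts separated the groups, as Htr3b alone did. It was 1.74, 2.32, 1.81 and 1.99 in AD1 OE and 1.08, 1.17, 1.21 and 1.17 in Control. The log2 ratio rose by 0.76 (exact permutation test, two-sided, p = 0.0286, adjusted over 5 ratios 0.0357). With Htr3b at a log2 fold change of 0.52 and Htr3a at -0.22, the ratio mostly restates the rise of Htr3b and is no separate evidence. Divided by the length of all annotated exons of each gene, the ratio was 1.00 ± 0.05 in Control and 1.70 ± 0.22 in AD1 OE (SD, n = 4 each).

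**Figure D3:**
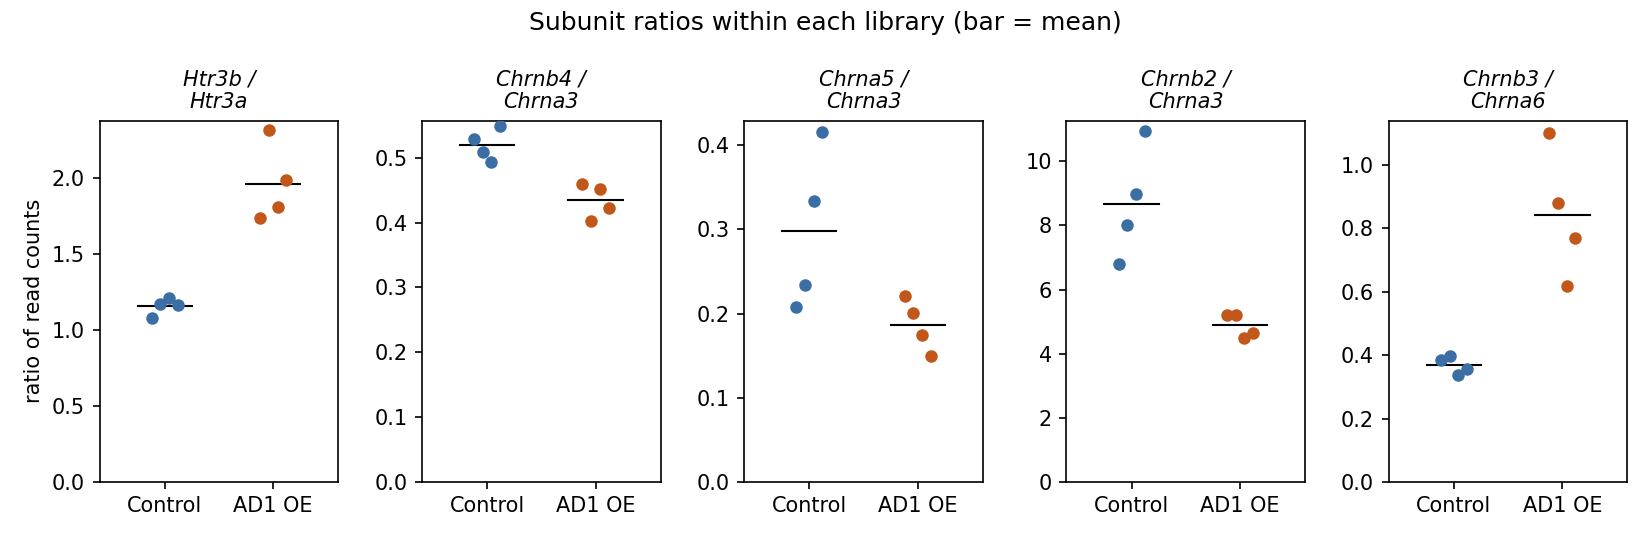
Ratio of the read counts of pairs of subunits within each library, for 4 Control (blue) and 4 AD1 OE (orange) libraries, with a bar at each mean. The groups do not overlap for Htr3b to Htr3a (1.74 to 2.32 against 1.08 to 1.21) and in all the other pairs except Chrna5 to Chrna3.

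Set against one another per length, in CPM per kb of exon, the subunits changed order. This length counts every base in any annotated exon of a gene. Levels and shares of different subunits thus depend on which transcripts were expressed, which was not measured. In Control, Htr3a (18.8 ± 1.16) and Htr3b (18.7 ± 1.03) were highest and differed by less than their spread, followed by Chrnb2 (9.13 ± 0.53), Chrna7 (5.59 ± 0.48) and Chrna6 (2.47 ± 0.08; SD, n = 4 each). Chrna4 (1.80 ± 0.26), Chrna3 (1.72 ± 0.33) and Chrnb4 (1.26 ± 0.24) came next, neighbours among them overlapping within their SDs, and Chrna5 (0.82 ± 0.10) and Chrnb3 (0.41 ± 0.02) were lowest. In AD1 OE the order was Htr3b (26.9 ± 0.93), Htr3a (16.1 ± 2.44), Chrnb2 (9.32 ± 0.37), Chrna3 (3.05 ± 0.35), Chrna7 (2.48 ± 0.20), Chrna4 (2.08 ± 0.27), Chrnb4 (1.88 ± 0.28), Chrna6 (1.17 ± 0.14), Chrna5 (0.94 ± 0.12) and Chrnb3 (0.45 ± 0.11). There Chrna7 and Chrna4, Chrna4 and Chrnb4, and Chrna6 and Chrna5 overlapped within their SDs. Chrna3 was thus at 0.23 to 0.39 times the per-length level of Chrna7 in the Control libraries and at 1.12 to 1.54 times it in the AD1 OE libraries.

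The summed per-length level of the 8 nicotinic subunits was 21.4 ± 0.71 CPM per kb in AD1 OE and 23.2 ± 1.11 in Control (SD, n = 4 each), with 1 AD1 OE library inside the Control range. Within that sum the make-up differed. Chrna7 took 11.6% ± 1.06 in AD1 OE and 24.1% ± 1.2 in Control, and Chrna6 5.47% ± 0.75 and 10.7% ± 0.67. Chrna3 took 14.3% ± 1.13 and 7.40% ± 1.31, and Chrnb4 8.76% ± 1.02 and 5.42% ± 0.92. Chrnb2 held the largest share in both groups, 43.6% ± 0.71 and 39.3% ± 1.14, and its count is uncertain because of Adar. Of the sum without Chrnb2, Chrna7 took 20.6% ± 1.79 in AD1 OE and 39.7% ± 2.49 in Control, Chrna6 9.70% ± 1.23 and 17.6% ± 1.29, Chrna3 25.3% ± 2.1 and 12.2% ± 2.01, and Chrnb4 15.5% ± 1.94 and 8.92% ± 1.38. These shares describe the same counts as the fold changes above and were not tested, and transcripts give no count of assembled receptors.

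**Figure D4:**
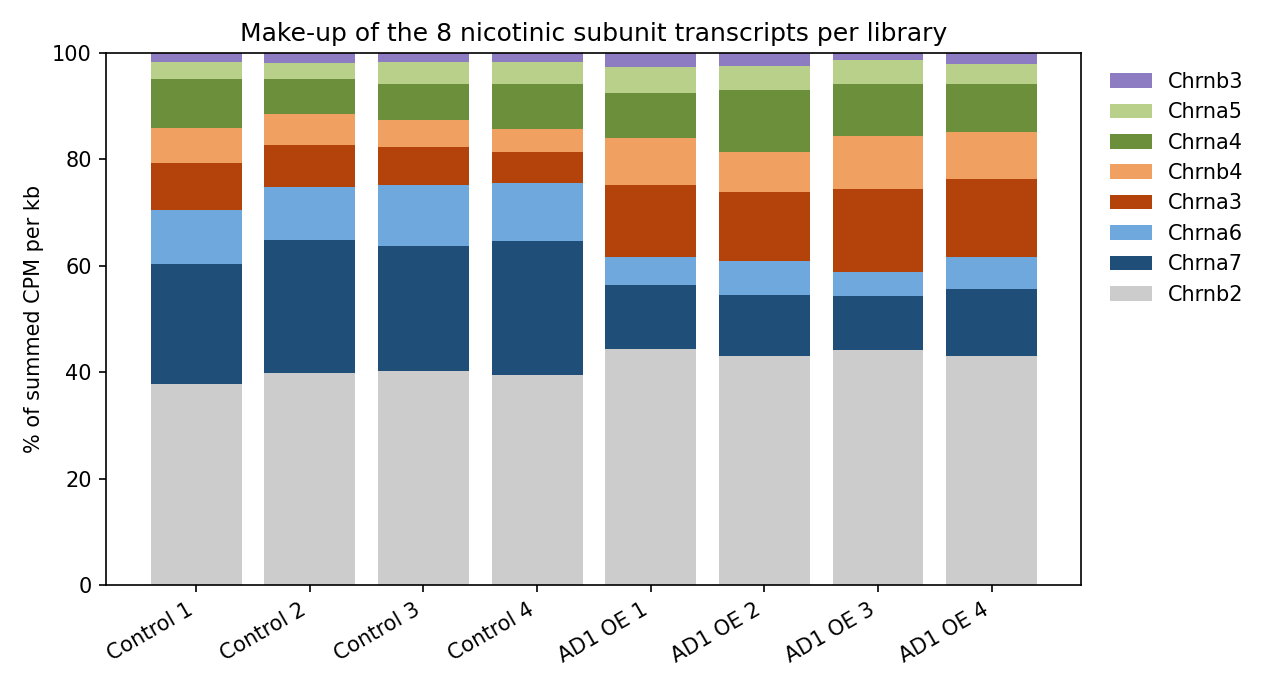
Share of each subunit in the summed CPM per kb of the 8 nicotinic subunit transcripts, 1 bar per library, in percent. Chrna7 and Chrna6 (blue) take a smaller part and Chrna3 and Chrnb4 (orange) a larger part in each AD1 OE library than in each Control library.

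The subunits lie in 3 gene clusters and at 3 single sites (Chrna7 on chromosome 7, Chrna4 on chromosome 2, Chrnb2 on chromosome 3), and the nearest protein-coding genes were compared, 3 on each side of a cluster. Beside Chrna5-Chrna3-Chrnb4 on chromosome 9, 0 of 5 tested neighbours were called (Hykk, Psma4, Ube2q2, Fbxo22 and Nrg4, smallest edgeR adjusted p = 0.574; 0 at an unadjusted p under 0.05 and 0 by DESeq2 or limma-voom), and AY074887 was too low to test. Beside Htr3a-Htr3b, also on chromosome 9, 0 of 6 were called (Gm5617, Nnmt, Zbtb16, Usp28, Zw10 and Tmprss5, smallest edgeR adjusted p = 0.0354; 2 at an unadjusted p under 0.05 and 0 by DESeq2 or limma-voom). Beside Chrnb3-Chrna6, 1 of 2 tested neighbours was called, since Unc5d, a netrin receptor gene, averaged 6.05 ± 0.76 CPM in AD1 OE against 12.8 ± 0.45 in Control (SD, n = 4 each; log2 fold change -1.07, SE 0.09, edgeR adjusted p = 1.85e-05). The other tested neighbour, Eif4ebp1, had a log2 fold change of -0.10, and Adrb3, Tex24, Poteg and Gm45861 were too low to test. Poteg and Gm45861 come before Unc5d in the order on its side. Neighbours were taken by order alone, and their distances from the clusters were not measured. Chrnb3 itself was not called, as given above.

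Of the other nicotinic subunits, those of muscle and of the inner ear among them, 4 of 8 were tested (Chrna1, Chrnb1, Chrne and Chrng) and 0 were called by edgeR, DESeq2 or limma-voom, with 1 at an unadjusted edgeR p under 0.05. Chrnb1 of the muscle receptor was the most abundant, with 5.64 ± 1.08 CPM in AD1 OE against 5.27 ± 0.51 in Control. Of the proteins that assist assembly or bind the receptor, 10 of 11 were tested and 2 were called, both lower. Over all tested genes 2.57% were called and 1.78% were called lower, and these shares stand beside the counts of each list below too. Tmem35a, which encodes the chaperone NACHO needed to assemble receptors of Chrna7, averaged 52.1 ± 5.2 CPM in AD1 OE against 70.9 ± 3.5 in Control (log2 fold change -0.45, edgeR adjusted p = 0.00141). Lynx1, a membrane-anchored protein that dampens nicotinic receptors and the most abundant of this list, averaged 117 ± 6.6 against 147 ± 9.55 CPM (log2 fold change -0.33, edgeR adjusted p = 0.00211). Both calls were close to the threshold: in 8 fits that each left out 1 library, Tmem35a was called in 4 and Lynx1 in 3, and the adjusted p reached 0.00723 and 0.0105. Ric3, another chaperone of nicotinic and 5-HT3 receptors, was at 44.2 ± 2.07 and 41.6 ± 1.89 CPM in AD1 OE and Control and was not called (edgeR adjusted p = 0.403).

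Muscarinic receptors, the G protein-coupled receptors for acetylcholine, were all 5 tested, with 1 called in each direction. Chrm2, the most abundant, was at 24, 24.4, 21.8 and 21.9 CPM in AD1 OE and at 31.0, 33.9, 36.0 and 33.9 CPM in Control (log2 fold change -0.55, edgeR adjusted p = 1.74e-04). Chrm1 was at 12.7, 12.2, 11.5 and 15.5 CPM in AD1 OE and at 7.11, 8.38, 7.90 and 8.73 CPM in Control (log2 fold change 0.69, edgeR adjusted p = 0.0013). Neither had overlapping groups, which held for 13% of all tested genes. The Chrm1 call was lost without AD1 OE 1 (0.00528), Control 2 (0.00508) or Control 3 (0.00542) and with the sex score as covariate (0.00902, edgeR adjusted p in each case), whereas Chrm2 was called in each of 17 alternative fits.

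Of 7 genes for making, moving and breaking down acetylcholine, 5 were tested and 1 was called. Ache, the enzyme that hydrolyses acetylcholine and the most abundant of them, averaged 130.1 ± 6.72 CPM in AD1 OE against 165 ± 9.16 in Control (SD, n = 4 each; log2 fold change -0.34, edgeR adjusted p = 8.49e-04), and it was called in 15 of 17 alternative fits, with an edgeR adjusted p of 0.0077 when the sex score was a covariate. Chat, which makes acetylcholine, was at 0.09 ± 0.06 and 0.13 ± 0.21 CPM, too low to test.

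Of 12 G protein-coupled serotonin receptors, 10 were tested and 2 were called, both lower in AD1 OE. Htr1b, an inhibitory receptor, was at 21.9, 22.6, 20.3 and 21.8 CPM in AD1 OE and at 33.2, 36.5, 31.6 and 36.0 CPM in Control (log2 fold change -0.67, edgeR adjusted p = 3.53e-05). In the annotation 18.0% of its exon bases are shared with an antisense gene. Htr2c was at 1.00, 1.29, 0.92 and 0.65 CPM in AD1 OE and at 2.83, 3.15, 2.83 and 3.25 CPM in Control (log2 fold change -1.66, edgeR adjusted p = 1.51e-04). The groups overlapped in neither gene, where 13% of all tested genes had no overlap, and both were called in each of 17 alternative fits. Of 7 genes for making, moving and breaking down serotonin, 6 were tested and 0 were called by edgeR or limma-voom, with 3 at an unadjusted edgeR p under 0.05. DESeq2, which called 3.71% of all tested genes, called 2, Maoa and Maob, both higher in AD1 OE. They encode enzymes that break down monoamines, serotonin among them. Sex was unequal between the groups, and no value with the sex score is given for these 2 genes. The most abundant was Maoa, with 154 ± 8.56 CPM in AD1 OE against 129.5 ± 5.86 in Control (log2 fold change 0.25, edgeR adjusted p = 0.00537).

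**Figure D5:**
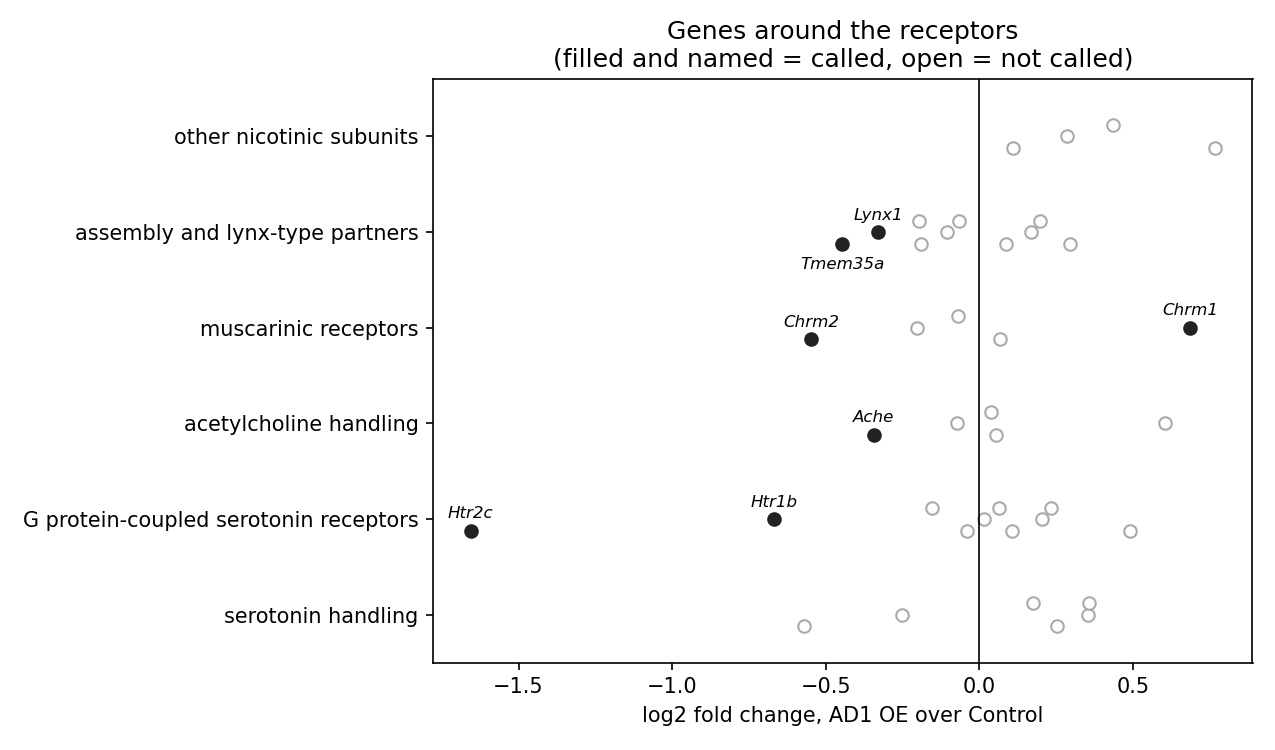
Log2 fold change, AD1 OE over Control, of the tested genes of 6 lists around the receptors, 1 point per gene; filled, named points were called with edgeR and open points were not. Of the 7 called genes, Chrm1 alone lies to the right of 0, and Htr2c lies farthest to the left at -1.66.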

How the data were processed

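Total RNA of DRG went into Illumina Stranded mRNA libraries. Per the labels and the methods, the authors demultiplexed the reads with bcl2fastq 2.20.0.422, aligned them to GRCm39 with STAR 2.7.8a, counted them per Ensembl gene with featureCounts 2.0.1 and deposited raw counts, 1 file per library; the strand setting is not stated. Groups and replicate numbers came from the sample titles. The members and lists were chosen with earlier results of these data known.

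Counts were tested in R 4.3.3 with edgeR 4.0.16 (TMM, filterByExpr, quasi-likelihood F test with genotype alone, Benjamini-Hochberg over 17721 genes). Thresholds were those the study gives for this comparison; its general methods name 0.05 for the adjusted p and 1 for the log2 fold change, an alternative here, and it used DESeq2. DESeq2 1.42.0 and limma-voom (limma 3.58.1), RLE and no scaling, other filters and thresholds, a sex score (Y-linked genes against Xist), the replicate number as a block, and leaving out each library were alternatives. Ratios of counts, with 0.5 added, were compared by exact permutation over 70 arrangements. They use the same counts as the fold changes. Library size sets the precision of each count, and without molecular identifiers it covers counting error only. Names, gene order, exon lengths and shared exons came from GENCODE M21, whose build (GRCm38) precedes the one used for counting; 52081 of 55414 IDs had a symbol. The text names all 10 members, the called and the most abundant gene of each list, and the neighbours of each cluster; other genes were named after their values were seen. Protein sequences were not analysed here.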

Additional observations from a re-analysis of the deposited data

Results flagged for a closer look

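Htr3b in Control was marked because 1 library stood apart from the other 3: Control 2 was at 48.9 CPM, against 43.7 to 44.2 CPM in the others, a gap of 0.900 of the whole range, which is above Dixon's 95% critical value for 4 samples. It was 1 of 30 group values checked, and chance marks about 1 in 20. All 4 AD1 OE libraries lay above it, and the log2 fold change of Htr3b without Control 2 was 0.56 (edgeR adjusted p = 5.83e-05).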

How the results depend on the processing

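Of all tested genes 455 were called, 4 subunits among them. DESeq2 called 657 genes and 5 subunits, and the fit without a filter on low counts 747 genes and 5 subunits, Chrnb4 being the addition in both. At an adjusted p under 0.05 with no fold limit 1161 genes and 5 subunits were called, and with an absolute log2 fold change over 1, 129 genes and 2 subunits (Chrna6 and Chrna7), the thresholds of the study's general methods. Leaving out 1 library gave 289 to 420 genes and 3 or 4 subunits, the lowest without AD1 OE 1; Chrna3 was the subunit lost. Leaving out 1 library, 3 to 5 of the 5 ratios passed, against 4 in all libraries. No scaling gave 64.7% of calls lower, against 69.5% with TMM.

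Replicate numbers 1 to 3 showed no pairing of the libraries (correlations of deviations -0.016, -0.070 and -0.027). For number 4 the correlation was 0.341. Control 4 was the best match of AD1 OE 4, but also of AD1 OE 1 and AD1 OE 2, so pairing was not settled. With the replicate block 348 genes and 3 subunits were called, without Chrna3 (edgeR adjusted p = 0.0065), and 0 of 5 ratios passed, since the block allows no exact p below 0.125. The calls of the other 9 subunits did not change under the block, that of Ache was lost (edgeR adjusted p = 0.0056), and no direction of a called subunit reversed in any alternative. With 4 libraries a group, small changes of the low subunits Chrna5 and Chrnb3 were not detectable.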
